A study of Mus musculus with 12 samples.

Results

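The 37 genes described here encode the machinery of the cell cycle and of DNA replication. They were taken by symbol from the authors' deposited gene tables, where each of the 37 had a row among 24340. Of these, 12 act in the passage from G1 to S phase and in replication, and 25 act in G2 and mitosis. The samples are labelled as cardiac cells of mice that are either cardiac knockouts (KO) of the epidermal growth factor receptor (EGFR) or wild type (WT). The groups used were knockout at 9 weeks of age (9wkKO), knockout at 7 weeks (7wkKO) and wild type at 7 weeks (7wkWT), with 3 samples each. The 3 samples of 9 week wild type (9wkWT) were not analysed here, so for a difference between 9wkKO and 7wkKO, age alone and age in the knockout cannot be told apart. No source used here gives the strain, the deleted part of the gene, or the promoter or Cre that drives the deletion. Whether the 3 samples of a group are separate animals is not stated, so the p-values may reflect technical spread alone.

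All levels below are FPKM (fragments scaled by transcript length and by mapped fragments) from the authors' deposited tables, 1 value per group, so no SD, n or per-sample value accompanies them and the depth is unknown. Every fold change is the log2 ratio of 2 such values, and every p and q is that of the authors' deposited Cuffdiff test. A gene is called changed where that q was under 0.05. The 95% intervals of folds rest on the error implied by the deposited test statistic (the fold divided by the statistic), which is wider than the deposited p implies, so an interval can include 0 where that p is small. One table set 7wkKO against 7wkWT and the other set 9wkKO against the same 7wkKO samples. In the authors' deposited tables Egfr was listed at 1.59 in 9wkKO, 1.64 in 7wkKO and 1.20 in 7wkWT (q = 0.379 at 7 weeks). This level over the whole gene was not lower in the samples labelled knockout and does not check the label. The defining cardiomyocyte markers were abundant in all 3 groups, with Myl2, the ventricular regulatory light chain gene, at 21978, 21145 and 24956 in 9wkKO, 7wkKO and 7wkWT.

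A dividing cell first licenses its replication origins by loading the MCM helicase, then copies its DNA in S phase under cyclin E and cyclin A kinases, and enters mitosis when cyclin B activates Cdk1. Aurora and Polo kinases, kinesins and the kinetochore then build the spindle, and the anaphase-promoting complex (APC/C) ends mitosis by marking securin and cyclin B for destruction. Most cardiomyocytes of the mouse leave the cell cycle soon after birth, and the cells that divide in the adult heart are mainly endothelial cells, fibroblasts and leukocytes. In bulk samples such as these, fewer dividing cells and less RNA per cell cannot be told apart.

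None of the 37 genes was called changed in either comparison. Of 23 tested at 7 weeks 0 passed the deposited Cuffdiff test, where 2.37% of all tested genes were called, and of 22 tested from 7 to 9 weeks 0 passed, where 4.66% of all tested genes were called. An unadjusted p under 0.05 was listed for 4 genes at 7 weeks (Mcm6, Tyms, Cenpf and Ube2c), each with the lower value in 7wkKO, beside 11.3% of all tested genes in either direction and 5.25% in that one. From 7 to 9 weeks it was listed for 2 (Cenpf and Ube2c), each with the higher value in 9wkKO, beside 12.9% in either direction and 6.53% in that one. These genes stood low in the heart: the median FPKM of the 37 was 0.903 in 9wkKO, 0.848 in 7wkKO and 0.966 in 7wkWT, and that of the 24 tested in either comparison was 1.26, 1.14 and 1.49, against 9.05, 9.10 and 8.92 for all genes tested in the tables used for those groups. In 35 of the 37 the FPKM reached 0.3 in at least 1 group, in 14 it was at least 1 in every group, and in 19 it stayed under 1 in every group. The authors' test covered 21 genes in both comparisons, Tyms and Tpx2 at 7 weeks only, Ccnb2 from 7 to 9 weeks only, and left 13 untested, whose FPKM ran from 0.178 to 0.754 in 9wkKO, from 0.0988 to 0.703 in 7wkKO and from 0.0991 to 0.787 in 7wkWT. At the level of isoforms, 0 of 22 tested at 7 weeks and 0 of 21 tested from 7 to 9 weeks were called by Cuffdiff, beside 1.42% and 2.93% of all tested isoforms. At an unadjusted p under 0.05 the isoform counts were 4 and 2, beside 9.3% and 9.89%.

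**Figure D1:**
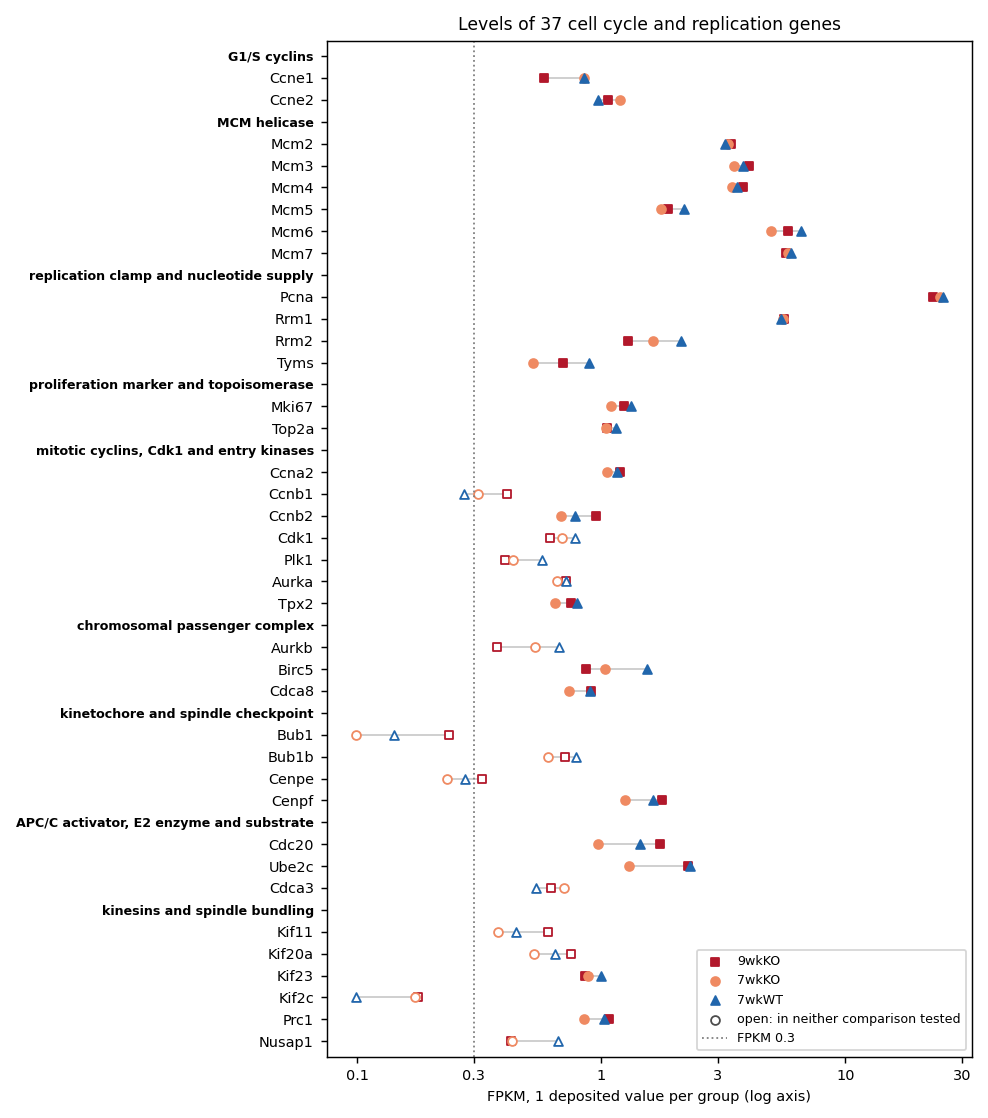
FPKM of each of the 37 genes (rows, grouped by role) in 9wkKO (squares), 7wkKO (circles) and 7wkWT (triangles) on a log axis, with open symbols for genes tested in neither comparison and a dotted line at 0.3. Pcna stands far to the right at 22.9, 24.4 and 25.1, the MCM genes and Rrm1 follow, and most mitotic genes lie near or under 1.

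Pcna (chr2:132249286-132253180, mm10), which encodes the sliding clamp that holds DNA polymerase on its template, was by far the most abundant of these genes, at 22.9 in 9wkKO, 24.4 in 7wkKO and 25.1 in 7wkWT. Its groups differed little, with a log2 fold of -0.04 at 7 weeks (95% interval -0.57 to 0.49, p = 0.801, q = 0.987) and -0.10 from 7 to 9 weeks (-0.61 to 0.40, p = 0.481, q = 0.936) in the authors' deposited tables. The product of Pcna also acts in DNA repair, outside the cell cycle. Rrm1 and Rrm2 encode the large and small subunits of ribonucleotide reductase, which makes deoxyribonucleotides. Rrm1 was listed at 5.60 in 9wkKO, 5.53 in 7wkKO and 5.42 in 7wkWT, while Rrm2, the subunit made mainly in S phase, was listed at 1.28, 1.63 and 2.12. Rrm2 thus had the order 9wkKO, 7wkKO, 7wkWT from low to high, with log2 folds of -0.38 at 7 weeks (-1.25 to 0.50, q = 0.661) and -0.36 from 7 to 9 weeks (-1.24 to 0.52, q = 0.685) in the authors' deposited tables. Tyms (chr5:30058200-30073625), the thymidylate synthase gene, stood at 0.698 in 9wkKO, 0.525 in 7wkKO and 0.893 in 7wkWT. Its log2 fold at 7 weeks was -0.76 (-1.80 to 0.27), with p = 0.0124 and q = 0.213 in the authors' deposited table, the smallest q of any of these genes in that comparison, and it was not tested from 7 to 9 weeks.

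The 6 MCM genes encode the ring-shaped helicase that opens the DNA at each origin, and all 6 were tested in both comparisons. Mcm6 (chr1:128331591-128359656), with Mcm7 the most abundant of them, was listed at 5.82 in 9wkKO, 4.94 in 7wkKO and 6.56 in 7wkWT. Its log2 fold was -0.41 at 7 weeks (-0.996 to 0.17), with p = 0.0175 and q = 0.263, and 0.23 from 7 to 9 weeks (-0.33 to 0.78, q = 0.686) in the authors' deposited tables. Mcm7 was at 5.69, 5.79 and 5.96 in 9wkKO, 7wkKO and 7wkWT. Its log2 fold was -0.04 in each comparison, with intervals of -0.65 to 0.57 at 7 weeks (p = 0.818, q = 0.989) and -0.61 to 0.54 from 7 to 9 weeks (p = 0.825, q = 0.994) in the authors' deposited tables. The products of these genes form 1 ring, yet Mcm5 was listed at 1.87 in 9wkKO, 1.76 in 7wkKO and 2.18 in 7wkWT, the lowest level of the 6 in each group. Mcm2 was listed at 3.39 in 9wkKO, 3.30 in 7wkKO and 3.22 in 7wkWT. In the same order of groups Mcm3 was at 4.03, 3.48 and 3.82, and Mcm4 at 3.80, 3.43 and 3.58. The log2 folds of the 6 ran from -0.41 to 0.03 at 7 weeks, 5 of them below 0, and from -0.04 to 0.23 from 7 to 9 weeks, 5 of them above 0.

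Ccne1 and Ccne2 encode cyclin E, the partner of Cdk2 at the start of S phase. Ccne1 was listed at 0.584 in 9wkKO, 0.848 in 7wkKO and 0.846 in 7wkWT, so the 7 week groups were level and 9wkKO stood lower (log2 fold -0.55, -1.75 to 0.66, p = 0.128, q = 0.620 in the authors' deposited table). Ccne2 was listed at 1.07, 1.20 and 0.966 in 9wkKO, 7wkKO and 7wkWT, with a log2 fold of 0.31 at 7 weeks (-1.29 to 1.91, p = 0.502, q = 0.929), the highest of the 23 tested, and -0.18 from 7 to 9 weeks (-1.59 to 1.23, p = 0.671, q = 0.979) in the authors' deposited tables. The cyclin E genes were the only role group here in which every tested fold was above 0 at 7 weeks and below 0 from 7 to 9 weeks, and none of those folds passed the test.

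Among the tested mitotic genes Ube2c (chr2:164769929-164772902) and Cdc20 (chr4:118428093-118437343) had the largest folds in size in both comparisons. Ube2c encodes the ubiquitin-conjugating enzyme that works with APC/C, and it was listed at 2.27 in 9wkKO, 1.30 in 7wkKO and 2.31 in 7wkWT. The level in 7wkKO was thus the low one, and those of 9wkKO and 7wkWT were nearly equal. Its log2 fold was -0.83 at 7 weeks (-2.12 to 0.46), with p = 0.0313 and q = 0.352, and 0.79 from 7 to 9 weeks (-0.39 to 1.98), with p = 0.0249 and q = 0.258 in the authors' deposited tables. Cdc20, which encodes the protein that activates APC/C in mitosis, was likewise lowest in 7wkKO, at 1.74, 0.964 and 1.44 in 9wkKO, 7wkKO and 7wkWT. Its log2 folds of -0.58 (-2.92 to 1.75, p = 0.398, q = 0.877) and 0.84 (-1.42 to 3.11, p = 0.213, q = 0.760) in the authors' deposited tables carried the widest intervals of all tested members. Cdca3, which encodes an adaptor that directs the mitosis inhibitor kinase Wee1 to destruction, was not tested and stood at 0.621, 0.703 and 0.538 in the same order of groups.

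Cenpf (chr1:189640614-189688086) encodes a large protein of the outer kinetochore. It was listed at 1.77 in 9wkKO, 1.25 in 7wkKO and 1.62 in 7wkWT, with a log2 fold of -0.38 at 7 weeks (-0.997 to 0.24, p = 0.0335, q = 0.364) in the authors' deposited table. From 7 to 9 weeks its log2 fold was 0.50 (-0.07 to 1.06), and the p of 0.00335 and q of 0.0656 in the authors' deposited table were the smallest of any of the 37 genes in either comparison. Cenpe, a kinesin of the kinetochore, and the spindle checkpoint kinase gene Bub1b were not tested and were also lowest in 7wkKO, at 0.326, 0.234 and 0.278 for Cenpe and 0.711, 0.604 and 0.787 for Bub1b in 9wkKO, 7wkKO and 7wkWT. Cenpe is the gene nearest above the 0.3 limit. Bub1, the other checkpoint kinase gene, stayed under 0.3 in all groups, at 0.238, 0.0988 and 0.141, below the limit at which folds are given.

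Birc5, Aurkb and Cdca8 encode survivin, Aurora kinase B and borealin, subunits of the chromosomal passenger complex that corrects faulty attachments of chromosomes to the spindle. Birc5 was listed at 0.865 in 9wkKO, 1.04 in 7wkKO and 1.54 in 7wkWT, with log2 folds of -0.57 at 7 weeks (-1.98 to 0.84, p = 0.170, q = 0.705) and -0.27 from 7 to 9 weeks (-1.71 to 1.16, p = 0.516, q = 0.946) in the authors' deposited tables. Aurkb, which was not tested, also stood lowest in 9wkKO and highest in 7wkWT, at 0.372 in 9wkKO, 0.534 in 7wkKO and 0.672 in 7wkWT. Cdca8 did not share it, at 0.903 in 9wkKO, 0.735 in 7wkKO and 0.897 in 7wkWT (q = 0.907 and q = 0.921 in the authors' deposited tables). The listed values of these subunits thus did not stand in 1 order of groups. The Cdca8 intervals of -1.62 to 1.05 at 7 weeks and -0.94 to 1.51 from 7 to 9 weeks included 0. Those of Birc5 also did, so these data do not show that the orders differ.

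Ccna2, Ccnb1, Ccnb2 and Cdk1 encode the cyclins and the kinase that drive entry into mitosis. Ccna2 was listed at 1.19 in 9wkKO, 1.05 in 7wkKO and 1.16 in 7wkWT. Its log2 folds were -0.13 at 7 weeks (-2.39 to 2.13, p = 0.852, q = 0.989) and 0.17 from 7 to 9 weeks (-1.85 to 2.19, p = 0.772, q = 0.993) in the authors' deposited tables. Ccnb2 was at 0.947, 0.687 and 0.781 (log2 fold from 7 to 9 weeks 0.45, -0.81 to 1.71, q = 0.764 in the authors' deposited table). Ccnb1 at 0.410, 0.313 and 0.274 and Cdk1 at 0.614, 0.690 and 0.779 were not tested, and their groups stood in opposite orders. The Polo kinase gene Plk1, untested, was at 0.402, 0.434 and 0.570. Aurka, the gene of Aurora kinase A, was at 0.719, 0.657 and 0.719 and was not tested either, while Tpx2, which encodes its activator, was at 0.749, 0.644 and 0.796 (q = 0.805 at 7 weeks in the authors' deposited table). Mki67, the Ki-67 gene used to mark proliferating cells, was listed at 1.23 in 9wkKO, 1.09 in 7wkKO and 1.32 in 7wkWT, with log2 folds of -0.28 (-0.91 to 0.36, p = 0.137, q = 0.654) and 0.17 (-0.43 to 0.76, p = 0.330, q = 0.877) in the authors' deposited tables. Top2a, the gene of the topoisomerase that untangles replicated chromosomes, was at 1.05, 1.05 and 1.15, with intervals of -0.91 to 0.65 and -0.75 to 0.73 around its folds.

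Kinesins and bundling proteins of the spindle completed the set. Prc1, which encodes the bundler of midzone microtubules, was listed at 1.07 in 9wkKO, 0.848 in 7wkKO and 1.02 in 7wkWT. Its log2 folds were -0.27 (-1.28 to 0.74, p = 0.349, q = 0.853) and 0.33 (-0.62 to 1.29, p = 0.218, q = 0.765) in the authors' deposited tables. Kif23, a motor of the cleavage plane, was at 0.857, 0.879 and 0.998. The untested Kif11 (the motor that separates the spindle poles), Kif20a and Nusap1 stood at 0.604, 0.754 and 0.425 in 9wkKO, at 0.376, 0.531 and 0.431 in 7wkKO, and at 0.446, 0.645 and 0.666 in 7wkWT. Kif2c, which encodes a microtubule depolymerase, stayed under 0.3 everywhere, at 0.178, 0.173 and 0.0991. For 5 of the 37 genes (Ccne2, Kif20a, Ccna2, Nusap1 and Cdc20) the deposited locus reached over 1000 bases beyond the RefSeq gene. Their values are uncertain for that reason, and the part of neighbouring transcripts in them was not tested.

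**Figure D2:**
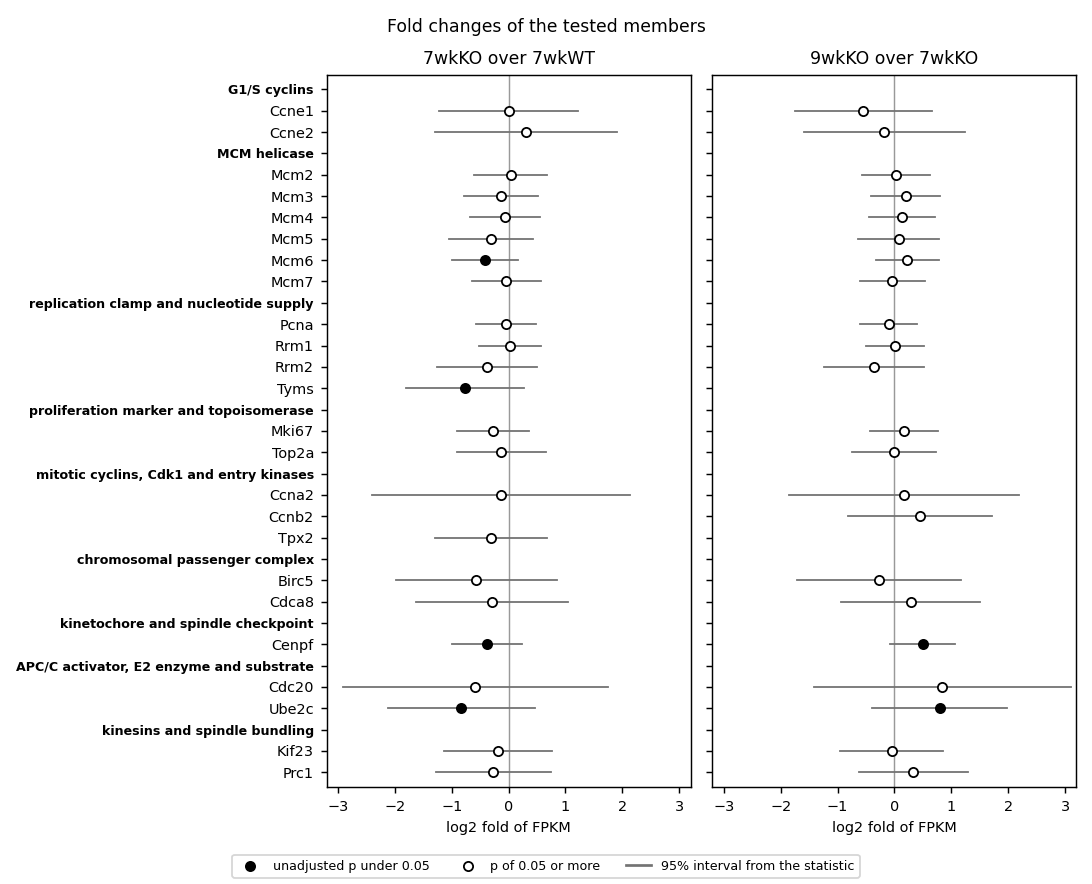
Log2 fold of FPKM of the tested genes at 7 weeks (left, 7wkKO over 7wkWT) and from 7 to 9 weeks (right, 9wkKO over 7wkKO), with 95% intervals from the deposited statistic and filled points at an unadjusted p under 0.05. Filled points are Mcm6, Tyms, Cenpf and Ube2c on the left and Cenpf and Ube2c on the right, and every interval includes 0.

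The folds can also be described by group. At 7 weeks all 11 tested mitotic genes had a log2 fold below 0, with a median of -0.29, against 8 of 12 tested replication genes, with a median of -0.05. Over both, 19 of 23 were below 0 with a median of -0.27, beside 50.1% of all tested genes, whose median was -0.000634. From 7 to 9 weeks 8 of 11 tested mitotic genes were above 0 (median 0.28) and 6 of 11 replication genes (median 0.01), beside 53.1% of all tested genes and their median of 0.01. Of the 35 genes that reached 0.3 FPKM, untested ones included, 29 were lower in 7wkKO than in 7wkWT and 22 were higher in 9wkKO than in 7wkKO. Among all genes with an FPKM above 0 in both groups, 8101 of 15955 were lower in 7wkKO than in 7wkWT. On the same terms 8359 of 15986 were higher in 9wkKO than in 7wkKO. The shares given for the cell cycle genes are descriptions of genes chosen with results known and of those that passed the authors' minimum. No sign in one comparison is independent of the other, which shares the 7wkKO samples. The median at 7 weeks was -0.13 with a pseudocount of 1 and -0.14 for the genes with a mean FPKM of at least 1. Relative to 7wkWT, the level in 9wkKO (the sum of both log2 folds, not tested) had a median of -0.04 over the 35 genes that reached 0.3, 20 of them below 0 and 15 above, and ran from -0.86 for Aurkb to 0.57 for Ccnb1.

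At 7 weeks 10 of the 23 tested genes had an interval lying wholly within 1 log2 unit of 0, and from 7 to 9 weeks 11 of 22 did, among them Pcna, Rrm1, Mki67 and Top2a in both comparisons. The interval reached beyond a log2 fold of 1 in size in both comparisons for Cdc20, Ccna2, Ube2c, Birc5, Ccne1, Ccne2, Rrm2, Cdca8 and Prc1. These data therefore cannot bound a change in those genes to that size.

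The promoters of mitotic genes are known to carry a cell cycle genes homology region (CHR), bound by the MuvB complex, with CCAAT boxes upstream, and those of replication genes an E2F site. RefSeq windows of 250 bases before to 50 after an annotated start (GRCm38.p6) were found for 31 of the 37 genes, in 33 windows. Both strands were searched. The window of Kif2c lay within its RefSeq gene and not at the outer end. The 2 windows of Prc1 overlapped, so the same CHR and CCAAT of Prc1 counted in both. A CHR, searched as TTTGAA or TTCGAA, was held by 18 of 22 mitotic windows (81.8%) and 2 of 11 replication windows (18.2%), beside 19.2% of all 32851 windows. It began within 50 bases of the start in 16 mitotic windows and 0 replication windows, beside 5.31% of all. An E2F site, searched as TTTCCCGC, TTTGGCGC, TTTGCCGC or TTTCGCGC, stood in 1 mitotic window (4.55%, Cdk1) and in 4 replication windows (36.4%), beside 2.26% of all. CCAAT was in 19 of 22 mitotic and 9 of 11 replication windows, beside 37.4% of all. A match is a description of letters and not of binding.

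The windows of the mitotic genes with the lowest p (Ube2c and Cenpf), of Cdc20 and of the replication gene Mcm6 are shown 5′ to 3′ in the sense of the gene, with CHR, CCAAT and E2F matches on either strand in capitals. They are chr2:164769679-164769978 on the plus strand for Ube2c, and on the minus strand chr1:189688037-189688336 for Cenpf, chr4:118437294-118437593 for Cdc20 and chr1:128359656-128359955 for Mcm6.
Ube2c: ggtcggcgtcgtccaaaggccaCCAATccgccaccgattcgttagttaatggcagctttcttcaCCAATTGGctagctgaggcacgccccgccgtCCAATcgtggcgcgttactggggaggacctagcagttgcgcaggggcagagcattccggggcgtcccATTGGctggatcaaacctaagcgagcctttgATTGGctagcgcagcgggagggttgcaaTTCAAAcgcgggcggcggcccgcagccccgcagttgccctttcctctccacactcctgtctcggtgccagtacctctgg
Cenpf: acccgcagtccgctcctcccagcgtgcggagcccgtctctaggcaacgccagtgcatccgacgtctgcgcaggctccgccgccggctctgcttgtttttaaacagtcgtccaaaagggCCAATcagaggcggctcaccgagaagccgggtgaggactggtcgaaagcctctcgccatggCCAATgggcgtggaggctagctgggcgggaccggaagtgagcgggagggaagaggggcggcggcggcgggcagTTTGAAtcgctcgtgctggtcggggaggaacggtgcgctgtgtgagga
Cdc20: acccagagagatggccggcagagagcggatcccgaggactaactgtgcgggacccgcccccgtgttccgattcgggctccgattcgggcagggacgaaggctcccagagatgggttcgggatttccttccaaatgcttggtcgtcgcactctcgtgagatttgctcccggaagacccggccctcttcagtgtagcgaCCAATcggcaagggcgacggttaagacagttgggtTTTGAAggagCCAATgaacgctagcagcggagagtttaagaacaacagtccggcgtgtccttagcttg
Mcm6: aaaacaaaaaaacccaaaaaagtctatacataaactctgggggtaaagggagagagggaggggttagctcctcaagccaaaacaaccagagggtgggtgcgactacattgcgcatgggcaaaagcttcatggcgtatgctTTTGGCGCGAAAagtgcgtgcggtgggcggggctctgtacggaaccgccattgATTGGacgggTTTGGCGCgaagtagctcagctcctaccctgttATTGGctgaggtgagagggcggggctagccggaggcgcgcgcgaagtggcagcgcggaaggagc
In Ube2c the CHR is read on the other strand, as TTCAAA, at position -29 from the start, and 6 CCAAT boxes lie upstream of it, a pair of which overlap as CCAATTGG. Cenpf has its CHR at position 3 and Cdc20 at position -18. Mcm6 has no CHR in this window and 3 E2F matches at positions -110, -106 and -47, the first pair of which overlap.

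Of 138 other genes of the cell cycle, in 8 lists, 106 were tested at 7 weeks and 0 passed the deposited Cuffdiff test, beside 2.37% of all tested genes. At an unadjusted p under 0.05, 1 was higher and 4 were lower, beside 11.3% of all tested genes in either direction and 5.25% lower. From 7 to 9 weeks 104 were tested and 1 was called lower, Wee1, where 4.66% of all tested genes were called. At an unadjusted p under 0.05, 3 were higher and 4 lower, beside 12.9% of all tested genes in either direction. Wee1 encodes the kinase that holds Cdk1 inactive and is also known as an output gene of the circadian clock. Wee1 was listed at 5.82 in 9wkKO and 11.4 in 7wkKO, with 10.2 in 7wkWT. It fell by 0.98 on the log2 scale from 7 to 9 weeks (-1.49 to -0.48), with q = 0.00237 in the authors' deposited table, and its log2 fold at 7 weeks was 0.17 (q = 0.797). The cell cycle brakes Cdkn1a (p21) and Cdkn1c (p57) were the most abundant of 5 tested CDK inhibitors, of which 0 were called. Cdkn1a was listed at 49.0 in 9wkKO, 39.0 in 7wkKO and 32.4 in 7wkWT (q = 0.537 at 7 weeks, and p = 0.0186 and q = 0.217 from 7 to 9 weeks in the authors' deposited tables). Cdkn1c was at 29.9, 30.1 and 38.3, with p = 0.0182 and q = 0.269 at 7 weeks in the authors' deposited table.

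The D cyclins and G1 kinases had 0 of 10 called in either comparison, with Ccnd3 at 56.4 in 9wkKO, 52.3 in 7wkKO and 57.4 in 7wkWT and Ccnd1 at 42.0, 37.9 and 47.8. The transcription factors of the cycle (E2F, RB and MuvB genes) had 0 of 15 called, and 10 of 15 stood above 0 in each comparison, with medians of 0.03 and 0.07. E2f6 and Rbbp4 were the most abundant of them, at 32.4 and 20.7 in 9wkKO, 32.1 and 21.5 in 7wkKO, and 27.5 and 22.5 in 7wkWT. Origin licensing genes had 0 of 13 called (medians 0.04 and 0.02), led by Gmnn, whose product blocks relicensing, at 40.9, 37.6 and 37.9 in 9wkKO, 7wkKO and 7wkWT. The second of them was Gins4, at 11.9, 13.0 and 12.1. Replication fork genes had 0 of 23 called at 7 weeks (median -0.12, 16 below 0) and 0 of 22 from 7 to 9 weeks (median -0.01), with Rpa1 at 23.6, 23.5 and 22.8 and Rpa3 at 16.1, 17.8 and 16.7. Other mitotic genes had 0 of 17 called at 7 weeks (median -0.05, 12 below 0). From 7 to 9 weeks they had 1 of 16 called, Wee1, with a median of -0.09 and 9 below 0. That median was on the other side of 0 from that of the tested mitotic genes among the 37. With untested genes included, 21 of all 35 genes of this list stood above 0, with a median of 0.05. This was on the same side of 0 as the median of 0.21 for the 25 mitotic genes, untested ones included. Bub3, of the spindle checkpoint, was at 20.4, 18.9 and 20.9. Pttg1, the securin gene, was the most abundant, at 137.5 in 9wkKO, 110.3 in 7wkKO and 135.8 in 7wkWT (q = 0.367 and q = 0.251 in the authors' deposited tables). The APC/C core (0 of 14) and cohesin (0 of 9) were not called either, with Anapc13 and Anapc5 at 312.5 and 98.3 in 9wkKO, 287.2 and 90.5 in 7wkKO, and 327.4 and 93.5 in 7wkWT. Rad21 and Smc1a, of cohesin, were at 38.0 and 20.2 in 9wkKO, 37.1 and 19.7 in 7wkKO, and 37.2 and 20.6 in 7wkWT.

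The tested markers of several cell types had medians on the same side of 0 as the mitotic genes, below 0 at 7 weeks and above 0 from 7 to 9 weeks. These medians were -0.32 and 0.36 for endothelial cells and -0.29 and 0.26 for red cells (3 genes tested). For neutrophils and platelets they were -0.47 (3 genes tested) and 1.58 (5 genes tested), and for macrophages -0.17 and 0.02. The 2 neutrophil and platelet markers untested at 7 weeks stood above 0 there. Cd79b, the single B cell gene tested, had log2 folds of -1.71 and 1.39. The medians of all tested genes were -0.000634 and 0.01, and the macrophage median from 7 to 9 weeks lay close to the latter. All 8 endothelial markers had a log2 fold below 0 at 7 weeks, with a median of -0.32, 0 called and 6 at an unadjusted p under 0.05. Of all tested genes, 2.37% were called at 7 weeks in either direction, and 5.25% were lower at an unadjusted p under 0.05. From 7 to 9 weeks all 8 endothelial markers were above 0, with a median of 0.36. Of them 3 were called higher, where 4.66% of all tested genes were called in either direction. These 3 were Kdr, at 84.9 in 9wkKO, 48.1 in 7wkKO and 58.8 in 7wkWT, Cldn5, at 40.1, 17.3 and 23.6, and Emcn, at 57.1, 39.6 and 48.8. The summed FPKM of all 8 was 546 in 7wkKO against 683 in 7wkWT in the first table, and 745 in 9wkKO against 549.9 in 7wkKO in the second. The most abundant were Eng, at 153.9, 117.9 and 137.3, and Cdh5, at 149.6, 115.9 and 157.1, in 9wkKO, 7wkKO and 7wkWT. Macrophage markers had 7 of 8 below 0 at 7 weeks (median -0.17, 0 called) and 5 of 8 above 0 from 7 to 9 weeks (median 0.02, 0 called). C1qa and C1qc, complement genes of macrophages, were at 88.5 and 79.4 in 9wkKO, 86.2 and 69.4 in 7wkKO, and 94.8 and 81.0 in 7wkWT. Fibroblast markers had 7 of 8 above 0 (median 0.20, Postn called higher) and then 7 of 8 below 0 (median -0.17, Postn and Lum called lower). Postn was listed at 31.9 in 9wkKO, 45.8 in 7wkKO and 29.6 in 7wkWT, Lum at 48.3, 66.3 and 54.9, Dcn at 402.9, 492.3 and 477.8, and Col3a1 at 91.1, 91.1 and 79.9. Cardiomyocyte markers had medians of 0.03 and -0.03, with 0 of 8 called, and mural cell markers medians of 0.02 and 0.19, with 0 of 6 called. Actc1 of cardiomyocytes was at 9593, 9639 and 9193, and Rgs5 and Acta2 of mural cells at 198.9 and 131.6 in 9wkKO, 176.9 and 109.5 in 7wkKO, and 177.0 and 89.1 in 7wkWT. The T cell markers summed to 0.960 in 9wkKO, 0.928 in 7wkKO and 1.03 in 7wkWT, none of them at 0 and none tested. The part of any of these cell types in the values of the cell cycle genes was not tested.

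**Figure D3:**
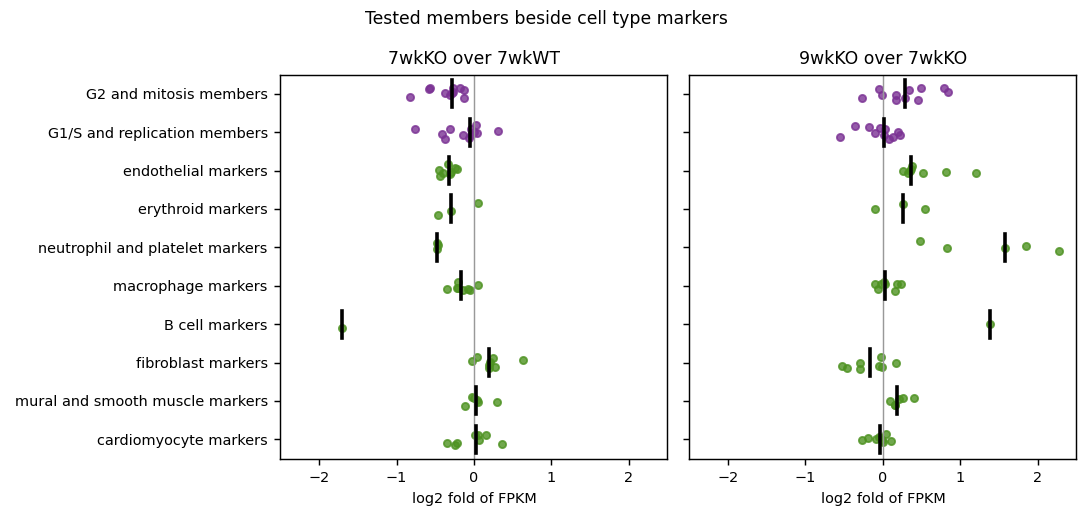
Log2 fold of FPKM of the tested mitotic and replication genes (purple) beside cell type markers (green) at 7 weeks (left, 7wkKO over 7wkWT) and from 7 to 9 weeks (right, 9wkKO over 7wkKO), with 1 point per gene and a black bar at each median. The medians of the mitotic genes are -0.29 and 0.28, and the endothelial, red cell, neutrophil and platelet, macrophage and B cell markers have medians on the same sides of 0. The medians of all tested genes, not drawn, were -0.000634 and 0.01.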

How the data were processed

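RNA was measured as poly(A)-enriched, stranded libraries of cardiac samples, per the labels' protocols. TopHat2, Cuffdiff and mm10 are named in the submitters' processing notes, but no source used here gives their versions, settings or strand use in counting. Each of the 4 tables that the authors deposited holds a gene or isoform comparison with 1 FPKM value for each group. The authors also deposited a test statistic (a kind of score), a p-value and a q-value in every row, per the file headers. The tables give no depth.

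Folds were recomputed as the log2 ratio of 2 deposited FPKM values with no pseudocount, since some cells of the deposited fold column held no number. Values of 7wkKO are those of the 7 week table, except in folds from 7 to 9 weeks and where the other table is named. They differed between tables by 0.582% to 0.901% for the 37 genes. Calls used a q under 0.05 and a status of OK. Locus starts were raised by 1. The members, lists and tests were chosen with earlier results of these data known. All 37 genes are given with their values, with statistics for the 3 largest folds per comparison and the most abundant tested gene of each role. From each further list the text names up to 4 called genes or the 2 most abundant tested, and from marker lists genes that are called or among the most abundant. Statistics beyond that rule were added after the values were seen. Genes of the blood cell lists are named under other observations, and Emr1, Hba-a1 and Ly6g matched no row. Groups were taken from the labels. The calculations were tested on simulated data. The tools were Matplotlib 3.10.9, SciPy 1.17.1, pandas 2.3.3, NumPy 2.4.6 and Python 3.11.15. The alternatives tried are named with their effect in the closing section.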

Additional observations from a re-analysis of the deposited data

How the results depend on the processing

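The count of called genes at 7 weeks was 0 under all 8 alternatives run (q under 0.01 or 0.1, a log2 fold of at least 0.5, recomputed adjustment, a normal p from the statistic, FPKM minimums of 0.3 and 1, and the isoform table). From 7 to 9 weeks it was 0 under 7 of these and 1 with q under 0.1, where Cenpf passed. The median log2 fold of the tested genes ranged from -0.27 to -0.13 at 7 weeks and from 0.07 to 0.13 from 7 to 9 weeks over pseudocounts of 0.1 and 1, centring, FPKM minimums and inclusion of untested genes, and the level in 9wkKO relative to 7wkWT had a median of -0.03 as a direct ratio. With both pseudocounts and centring no single-gene fold moved by more than its implied error, and 134 recalculated folds kept their direction. The 1 exception was Rrm1 from 7 to 9 weeks, with a log2 fold of 0.01 that became -0.0052 when centred on all tested genes. Leaving out single replicates was not possible, since the tables used hold no value per sample. No paired analysis was possible because the tables used hold 1 value per group. Low FPKM and unknown depth limit the mitotic genes most, of which 14 of 25 were untested at 7 weeks.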

Other observations

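The isoform tables list 54 isoforms of the 37 genes, and 26 genes have a single isoform. The isoforms at an unadjusted p under 0.05 belonged to Cenpf, Mcm6, Tyms and Ube2c at 7 weeks, and to Cenpf and Ube2c from 7 to 9 weeks. Survivin came almost wholly from NM_009689, which made up 98.9% of the summed isoform FPKM of Birc5 in 9wkKO, 98.3% in 7wkKO and 98.0% in 7wkWT in the authors' deposited tables. For Mcm5 the share of NM_008566 was listed at 99.98% in 9wkKO, 66.8% in 7wkKO and 61.1% in 7wkWT, and for Ccne2 that of NM_001282943 at 46.9%, 35.8% and 94.3%. These shares were not tested, and their error is unknown.

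Of the red cell markers 2 of 3 tested were below 0 at 7 weeks and 2 of 3 above 0 from 7 to 9 weeks. Of the neutrophil and platelet markers 3 of 3 tested were below 0 at 7 weeks, and 5 of 5 tested were above 0 from 7 to 9 weeks. The other 2, S100a8 and Itga2b, were untested at 7 weeks and stood above 0 there (log2 folds 0.27 and 0.19). Cd79b, a B cell receptor gene, was listed at 0.843 in 9wkKO, 0.319 in 7wkKO and 1.04 in 7wkWT, with p = 0.0077 and q = 0.164 at 7 weeks and p = 0.0163 and q = 0.198 from 7 to 9 weeks in the authors' deposited tables. The B cell list summed to 1.35, 0.845 and 1.82 in 9wkKO, 7wkKO and 7wkWT, none of its 4 genes at 0. Alas2, the heme synthesis gene of red cell precursors, was listed at 9.48, 6.44 and 8.87 and was called higher from 7 to 9 weeks (log2 fold 0.55, q = 0.0314 in the authors' deposited table), while Hbb-bt stood at 48.9, 40.6 and 49.7. The globin gene Hba-a2 was listed for 7wkKO at 0.0163 in one table and 46.2 in the other, so its levels were not compared. The platelet genes Pf4, at 36.9, 26.3 and 36.3, and Ppbp, at 4.83, 1.33 and 1.85, had log2 folds of 0.48 (q = 0.0833) and 1.85 (q = 0.00237) from 7 to 9 weeks in the authors' deposited table. The neutrophil genes S100a8 and S100a9 were at 1.87 and 2.91 in 9wkKO, 0.624 and 0.594 in 7wkKO, and 0.518 and 0.829 in 7wkWT (q = 0.491 and q = 0.603 from 7 to 9 weeks in the authors' deposited table). The part of blood in the values of the cell cycle genes was not tested.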
